A study of Mus musculus with 9 samples.

Results

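Cytochrome P450 genes and the gene of their reductase, Por, were followed in J774A.1, a mouse macrophage cell line, across 9 RNA libraries, 3 in each of 3 groups. The Q11 group was treated with Q11 plus the cytokines IL-4 and IL-13, the M2 group with those cytokines alone (stated as 10 ng/mL), and the control group with neither; all share the same cell line, so they hold no primary macrophages. Q11 is named in the title of the study as an inhibitor of CYP2E1; its dose, the cytokine dose beside it and the treatment time are not stated in the labels. Members were the rows whose symbol starts with Cyp and a digit, without Cyp51 and without pseudogenes, plus Por: 43 of the 26157 genes of the table, that is 42 P450 genes and Por. Each row of that table is above 0 in at least 1 library. The mouse annotation GENCODE M21 names 99 protein-coding P450 genes by the same rule, and 57 of them were not analysed here, among them Cyp1a2, Cyp2b10 and Cyp7a1.

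Cytochromes P450 are haem enzymes that put an oxygen atom into lipids, steroids, vitamins and drugs. Those of the endoplasmic reticulum draw their electrons from NADPH through the flavoprotein POR, and those of mitochondria through ferredoxin and ferredoxin reductase. Families 1 to 3 are known best for drug metabolism in the liver, whereas other families make or remove sterols, vitamin D, retinoic acid and fatty acid mediators, some of them in macrophages.

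Values are TPM, a transcript abundance scaled for gene length and library total, which can be set side by side between genes. In RNA of whole cultures, fewer expressing cells and less RNA per cell cannot be told apart. The number of reads behind each value could be recovered, and 8 libraries held 15809454 to 17089257 reads. Q11 replicate 2 held 32180960 reads, and of the 19235 genes read in Q11 replicate 3 it had fewer reads in only 10, so these libraries share reads and are not independent. Values with the reads of replicate 3 taken out of replicate 2 are called separated. They are given where a tested member or a retinoic acid hydroxylase is described and where a statement turns on them; all other values are as deposited. All 10 macrophage markers were above the filter described next (Cd68 averaged 2546 TPM), while the hepatocyte markers summed to 8.44 to 12.002 TPM in Q11, 6.55 to 15.2 TPM in M2 and 10.4 to 14.9 TPM in control libraries, nearly all of it from Apoa2. Of 10 hepatocyte markers 4 were listed and 1 was tested, and Hnf4a was at or below 0.0412 TPM in every library.

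Testing was limited to genes that reached 1 TPM or more in 3 or more libraries, whatever their group. Por and 8 of the 42 P450 genes passed this filter (19.0%, against 54.3% of all rows), and 34 P450 genes did not. The 8 were Cyp27a1, Cyp20a1, Cyp4f16, Cyp4v3, Cyp4f13, Cyp4f17, Cyp4f18 and Cyp2u1. They held nearly all transcripts of the 42 P450 members. These summed to 246 to 276 TPM per library, and the 34 others gave 1.28% to 2.19% of that. Cyp27a1 alone gave 37.6% to 42.2% of the sum. The rule left Cyp51 out of this sum. That P450 gene averaged 129 TPM in Q11, 124 TPM in M2 and 123 TPM in control libraries, above Cyp27a1.

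**Figure D1:**
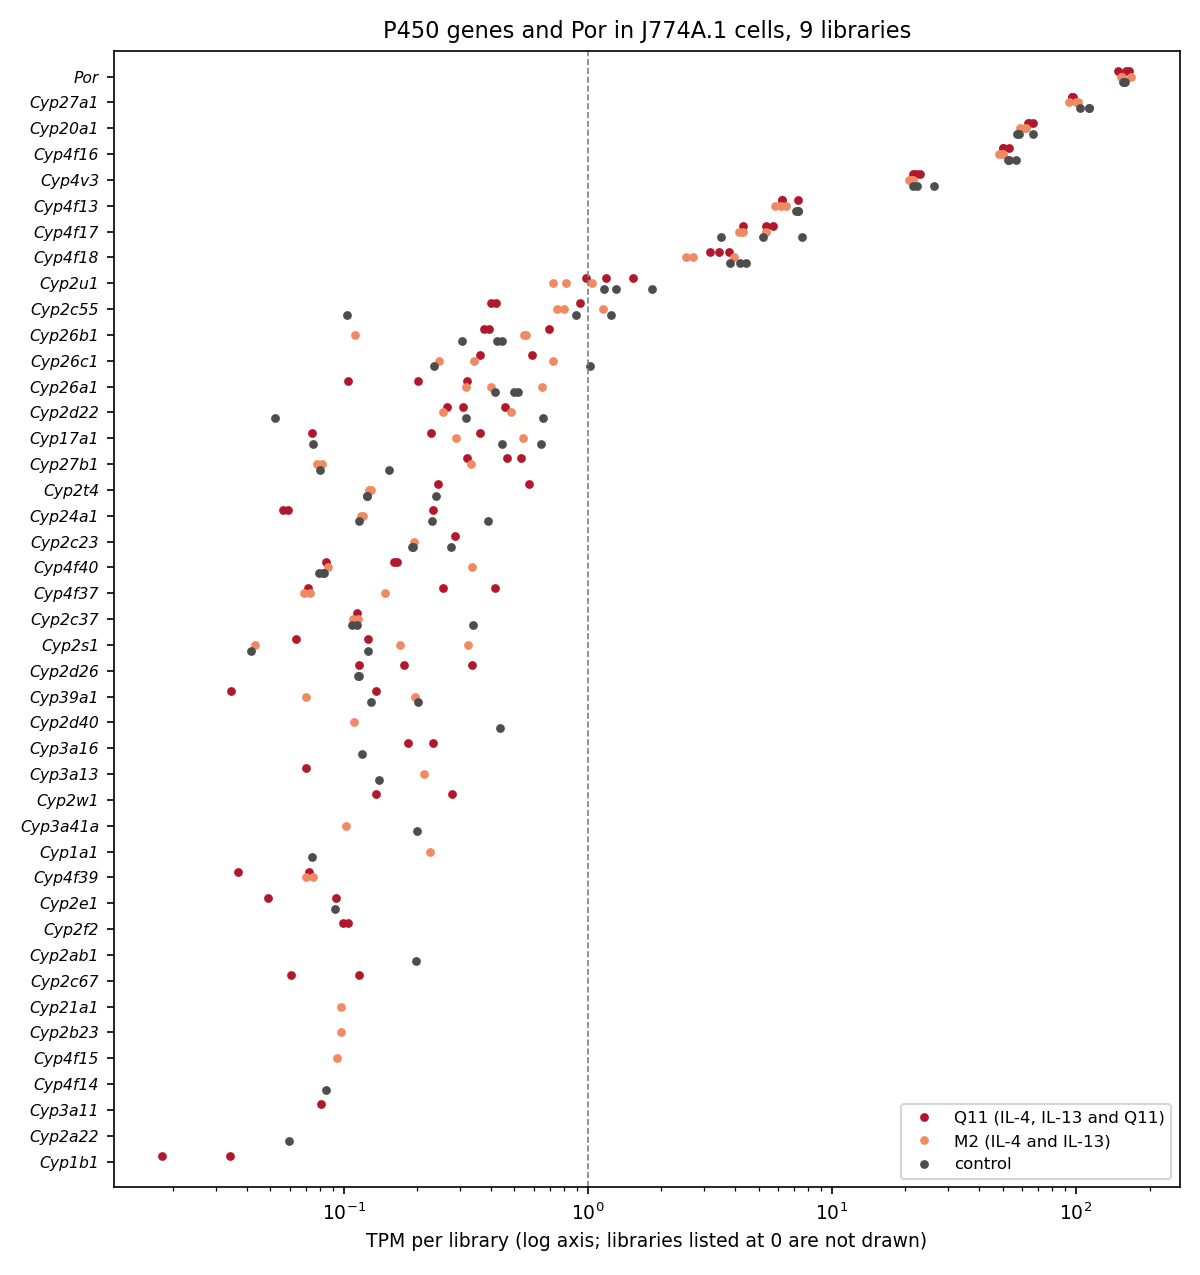
TPM of the 43 members in each library on a log axis, in the order of their mean level, with Q11, M2 and control libraries in separate colours and a dashed line at 1 TPM. Por and 8 P450 genes lie mostly above the line, Cyp2u1 straddles it, and the remaining 34 lie below it apart from 2 libraries of Cyp2c55 and 1 of Cyp26c1; values of 0 are not drawn.

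Cyp2e1, which encodes the enzyme that Q11 is said to inhibit (ENSMUSG00000025479, GRCm38 chromosome 7, 140763739 to 140774987, plus strand), was barely read. Its level was 0, 0.0488 and 0.0927 TPM in the Q11 libraries, 0 in each M2 library and 0, 0.0916 and 0 TPM in the control libraries. Each of these values above 0 was a single read. With at most 1 read in a library, the groups could not be told apart. A count of 0 allows up to 3 reads, which would be 0.146 to 0.297 TPM in these libraries. With the shared reads separated, Q11 replicate 2 held 0 reads of it. The limit of 3 reads covers counting error only. Cyp2e1 encodes an ethanol-inducible enzyme that is abundant in hepatocytes.

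The promoters of a P450 gene that is nearly silent here and of one that is highly read are shown for comparison, 250 bases before to 50 bases after the RefSeq start (GRCm38.p6), 5′ to 3′ on the gene's strand. Capitals mark the letters of CCAAT or its complement ATTGG, of TATAAA or its complement TTTATA, and of GGGCGG or its complement CCGCCC. No marked stretches overlap in the windows shown. The window of Cyp2e1 is chr7:140763569-140763868 (plus strand), and that of Cyp27a1 is chr1:74713285-74713584 (plus strand).
Cyp2e1: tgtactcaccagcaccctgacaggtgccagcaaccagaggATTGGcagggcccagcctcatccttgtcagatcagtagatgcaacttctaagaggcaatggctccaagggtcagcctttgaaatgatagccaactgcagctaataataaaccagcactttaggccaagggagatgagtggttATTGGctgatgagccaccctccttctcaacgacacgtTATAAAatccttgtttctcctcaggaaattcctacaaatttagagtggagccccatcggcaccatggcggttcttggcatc
Cyp27a1: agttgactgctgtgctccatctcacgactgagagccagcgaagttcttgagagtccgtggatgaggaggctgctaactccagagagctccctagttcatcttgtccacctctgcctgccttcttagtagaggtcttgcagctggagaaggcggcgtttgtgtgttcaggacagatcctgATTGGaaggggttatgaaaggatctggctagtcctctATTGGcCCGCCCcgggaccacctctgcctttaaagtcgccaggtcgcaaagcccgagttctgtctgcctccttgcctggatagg

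The Cyp2e1 window held TATAAA 31 bases before the start and ATTGG 68 and 210 bases before it. The Cyp27a1 window held no TATAAA. It held ATTGG at 34 and 71 bases before the start and CCGCCC at 28 bases before it. Over the members with a window (35 of 43), TATAAA on either strand was in 0 of 7 windows of tested members and in 12 of 32 windows of members below the filter, against 13.6% of all 32841 promoter windows and 7.03% of those of all tested genes. GGGCGG was in 6 of the 7 and in 6 of the 32, against 35.7% of all windows and 61.5% of those of all tested genes. These matches are descriptions of the letters, and no binding was measured.

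Among the 4 members that act on sterols or vitamin D, Cyp27a1 stood highest. It encodes the mitochondrial sterol 27-hydroxylase, which turns cholesterol into 27-hydroxycholesterol (ENSMUSG00000026170, chromosome 1, 74713574 to 74737892, plus strand). Its level was 96.2, 97.0 and 96.4 TPM in Q11 libraries, 93.8, 102 and 100.2 TPM in M2 libraries and 113, 113 and 104 TPM in control libraries. All 6 libraries treated with cytokines lay below the lowest control library, while Q11 and M2 libraries overlapped. Q11 replicate 2 was at 98.9 TPM separated. In M2 against control it fell by 0.16 on the log2(TPM + 1) scale (95% interval -0.25 to -0.06, limma adjusted p = 0.0437), 10.4% lower in mean TPM. In Q11 against control it fell by 0.19 (-0.28 to -0.09, limma adjusted p = 0.0250), 12.3% lower. Both comparisons share the control libraries. Cyp27a1 was the 1 of 8 tested P450 genes that passed as lower in each of them, where 5.75% of all tested genes were called lower in M2 and 5.53% in Q11 against control. The summed level of the 10 macrophage markers moved the same way, at 8909 to 8947 TPM in Q11, 8536 to 9176 TPM in M2 and 12845 to 13255 TPM in control libraries. Most of that difference came from Lyz2. The markers did not all move this way. Lyz2, Cd14, Mpeg1, Itgam and Ptprc lay lower in every library with cytokines than in any control library. In Cd68, Csf1r, Spi1, Adgre1 and Fcgr3 the libraries with cytokines overlapped control. The part of these markers in the Cyp27a1 result was not tested.

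This call lay close to the threshold. With the shared reads separated the limma adjusted p was 0.0612 for M2 and 0.0442 for Q11 against control. The M2 call was also lost without control replicate 1 (0.134), control replicate 2 (0.125), M2 replicate 1 (0.118), M2 replicate 3 (0.0723), or Q11 replicates 1 (0.0628), 2 (0.0724) or 3 (0.0716), and it held without control replicate 3 or M2 replicate 2. The Q11 call was lost without control replicate 1 (0.0849), control replicate 2 (0.0794) or Q11 replicates 1 (0.0714), 2 (0.0758) or 3 (0.0836). The difference stayed negative under all 17 alternatives, between -0.20 and -0.12 for M2 and between -0.23 and -0.17 for Q11.

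The vitamin D enzymes of mitochondria were read at a trace. Cyp27b1, which makes the active hormone calcitriol, had 4, 13 and 6 reads in Q11 libraries (7 of the 13 once the shared reads are separated), 1, 4 and 1 in M2 libraries and 0, 2 and 1 in control libraries. In TPM that is 0.320, 0.531 and 0.467 in Q11, 0.0773, 0.332 and 0.0813 in M2 and 0, 0.154 and 0.0796 in control libraries. Q11 libraries lay above control libraries without overlap and overlapped M2 libraries; the gene was below the filter and was singled out after its values were seen. Its difference in a fit with no filter was 0.42 in Q11 against control and did not pass (limma adjusted p = 0.0799). Cyp24a1, which breaks calcitriol down, reached at most 7 reads and 0.389 TPM in a library. Cyp39a1, an oxysterol hydroxylase, reached at most 3 reads. Of the steroid hormone enzymes, Cyp17a1 reached 9 reads and Cyp21a1 had 1 read in all.

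The retinoic acid hydroxylases were listed in full but stayed below the filter. Cyp26b1 was read in all 9 libraries, at 0.693, 0.393 and 0.374 TPM in Q11, 0.111, 0.559 and 0.547 TPM in M2 and 0.424, 0.443 and 0.306 TPM in control libraries, with Q11 replicate 2 at 0.420 TPM separated. Cyp26a1 was also read in all 9, at 0.104, 0.318 and 0.202 TPM in Q11, 0.401, 0.646 and 0.316 TPM in M2 and 0.416, 0.498 and 0.516 TPM in control libraries. On 1 to 6 reads per library, the Q11 values of Cyp26a1 as deposited lay below the control values and overlapped those of M2. With the shared reads separated Q11 replicate 2 was at 0.453 TPM, inside the range of control, and the difference of Q11 against control as deposited did not pass in a fit with no filter (-0.29, limma adjusted p = 0.235). Cyp26c1 ranged from 0 to 1.02 TPM, and its groups overlapped, with Q11 replicate 2 at 0.771 TPM separated.

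Fatty acid and eicosanoid enzymes made up 6 of the 8 tested P450 genes, out of 11 listed. Cyp4f16 was the highest of them (ENSMUSG00000048440, chromosome 17, 32536558 to 32551798, plus strand). It belongs to the CYP4F subfamily, whose human members hydroxylate leukotriene B4 and long-chain fatty acids at or near the end of the chain. Its level was 53.0, 50.3 and 50.2 TPM in Q11, 50.2, 48.4 and 49.6 TPM in M2 and 52.9, 52.6 and 56.8 TPM in control libraries. All M2 values lay below all control values, and Q11 replicate 2 was at 51.1 TPM separated. The difference of M2 against control was -0.13 (-0.22 to -0.04) and did not pass (limma adjusted p = 0.0752). Of its 50-base stretches, 17.4% also occur in transcripts of other genes, Cyp4f37 and Cyp4f17 first among them, so its reads and theirs could be split differently by another counting.

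Cyp4f13 (ENSMUSG00000024055, chromosome 17, 32924688 to 32947402, minus strand) was at 6.26, 6.26 and 7.26 TPM in Q11, 6.45, 6.20 and 5.84 TPM in M2 and 7.24, 7.26 and 7.15 TPM in control libraries. Again M2 lay below control without overlap, and Q11 replicate 3 reached the level of control. The difference of M2 against control was -0.20 (-0.38 to -0.02, limma adjusted p = 0.156). With the shared reads separated Q11 replicate 2 was at 5.21 TPM, and the difference of Q11 against M2 was 0.01 in place of 0.08. Cyp4f17 (ENSMUSG00000091586, chromosome 17, 32506050 to 32530143, plus strand) was at 4.32, 5.36 and 5.76 TPM in Q11, 4.17, 5.34 and 4.32 TPM in M2 and 5.22, 3.52 and 7.56 TPM in control libraries. The control libraries span the values of both other groups, Q11 replicate 2 also when separated (4.98 TPM), and leaving out control replicate 3 turned the direction of M2 against control (-0.16 with it, 0.07 without it).

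These genes lie in a run of 8 listed Cyp4f members over 495 kb of chromosome 17. Within it Cyp4f16 averaged 51.6 TPM over the 9 libraries, Cyp4f13 averaged 6.66 TPM and Cyp4f17 averaged 5.06 TPM. The 5 others averaged between 0.00941 TPM (Cyp4f14) and 0.120 TPM (Cyp4f40). Cyp4f14 and Cyp4f15 had a single read each in all libraries together. Cyp4f17 and Cyp4f16 are next to each other on the plus strand, and Cyp4f13 is at the far end on the minus strand beside the nearly unread Cyp4f14.

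**Figure D2:**
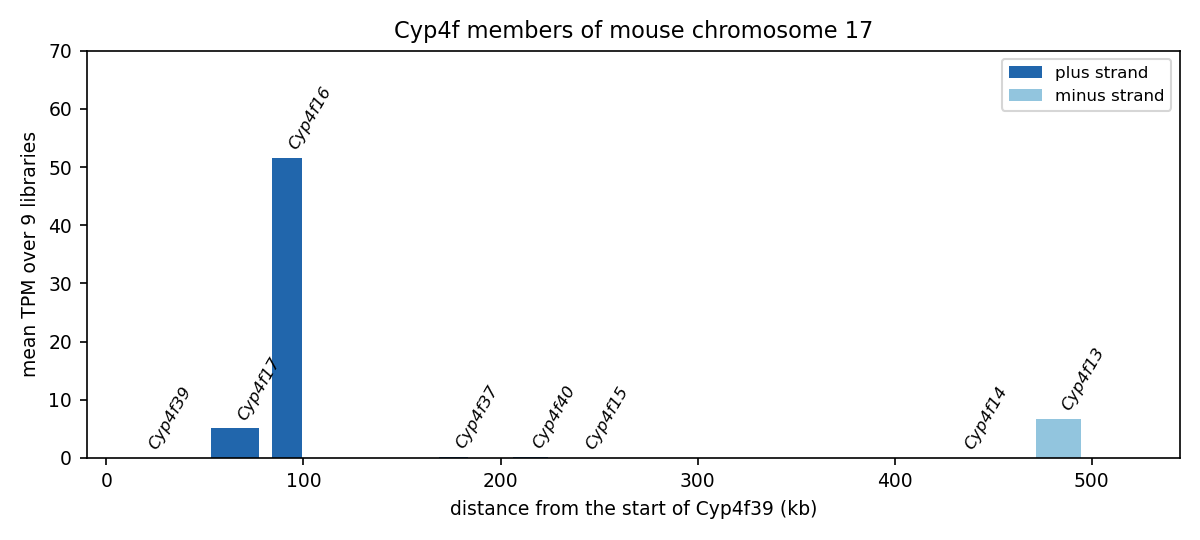
Mean TPM over the 9 libraries of the 8 Cyp4f members of chromosome 17, placed by their distance in kb from the start of Cyp4f39, with the width of a bar showing the extent of the gene and its shade the strand. Cyp4f16 stands at 51.6 TPM, Cyp4f13 and Cyp4f17 at 6.66 and 5.06 TPM, and the bars of the other 5 are too low to be seen.

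Cyp4f18 lies apart on chromosome 8 (ENSMUSG00000003484, 71988482 to 72009626, minus strand). Its mouse enzyme is known to hydroxylate leukotriene B4 in neutrophils. It was at 3.44, 3.18 and 3.78 TPM in Q11, 3.97, 2.53 and 2.71 TPM in M2 and 4.45, 3.84 and 4.19 TPM in control libraries. M2 replicate 1 reached into the range of control, and the other M2 libraries lay below it. With the shared reads separated Q11 replicate 2 was at 2.54 TPM, inside the range of M2 and below control. The difference of M2 against control was -0.36 (-0.69 to -0.02, limma adjusted p = 0.164), and without M2 replicate 1 it passed as lower at -0.51 (limma adjusted p = 0.0448). Q11 lay below control without overlap (-0.21, -0.54 to 0.12, limma adjusted p = 0.448). Of its exon bases 9.76% overlap those of Zfp961 on the opposite strand, which averaged 16.6 TPM, and reads there cannot be told apart unless the counting used strand, which is not stated.

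Promoter windows of the Cyp4f genes are shown because closely related genes differed so much in level: Cyp4f16, Cyp4f13 and Cyp4f18 were above the filter, and Cyp4f15 had 1 read. The windows are chr17:32536307-32536606 (plus strand), chr17:32947312-32947611 (minus strand), chr8:72009577-72009876 (minus strand) and chr17:32685409-32685708 (plus strand), with capitals as before.
Cyp4f16: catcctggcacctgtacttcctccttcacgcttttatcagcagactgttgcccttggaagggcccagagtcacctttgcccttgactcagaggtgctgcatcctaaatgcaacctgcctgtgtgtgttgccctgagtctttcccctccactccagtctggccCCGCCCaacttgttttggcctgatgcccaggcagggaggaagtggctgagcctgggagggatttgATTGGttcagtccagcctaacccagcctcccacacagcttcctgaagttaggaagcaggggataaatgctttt
Cyp4f13: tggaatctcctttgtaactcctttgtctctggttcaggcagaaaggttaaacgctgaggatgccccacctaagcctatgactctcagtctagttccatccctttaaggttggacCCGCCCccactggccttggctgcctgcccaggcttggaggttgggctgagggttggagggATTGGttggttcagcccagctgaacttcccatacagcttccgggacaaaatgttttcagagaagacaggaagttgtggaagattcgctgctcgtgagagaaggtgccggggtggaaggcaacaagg
Cyp4f18: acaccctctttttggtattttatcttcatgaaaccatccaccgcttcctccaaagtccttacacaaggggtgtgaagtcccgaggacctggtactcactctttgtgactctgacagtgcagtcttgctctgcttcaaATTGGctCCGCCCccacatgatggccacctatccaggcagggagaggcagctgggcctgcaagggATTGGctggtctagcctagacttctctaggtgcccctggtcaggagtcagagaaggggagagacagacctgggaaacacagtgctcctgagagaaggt
Cyp4f15: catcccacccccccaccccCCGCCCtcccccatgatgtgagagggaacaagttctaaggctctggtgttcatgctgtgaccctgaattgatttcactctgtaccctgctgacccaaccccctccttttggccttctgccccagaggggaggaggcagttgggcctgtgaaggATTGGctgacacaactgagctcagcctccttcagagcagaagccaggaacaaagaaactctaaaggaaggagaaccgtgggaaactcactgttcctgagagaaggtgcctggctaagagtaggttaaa

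ATTGG stood 23 bases before the start in Cyp4f16, 76 in Cyp4f13, 48 and 113 in Cyp4f18, and 78 in the nearly unread Cyp4f15. CCGCCC stood 88 bases before the start in Cyp4f16, 136 in Cyp4f13, 106 in Cyp4f18 and 231 in Cyp4f15. CCAAT on either strand was in 6 of the 8 Cyp4f members that have a window, and in 9 of their 12 windows, 4 of which are overlapping windows of Cyp4f14; it was in 37.4% of all promoter windows. Both motifs thus occur in read and in nearly unread members.

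Cyp4v3 (ENSMUSG00000079057, chromosome 8, 45304944 to 45333216, minus strand) is the mouse counterpart of human CYP4V2, a fatty acid hydroxylase whose loss causes a crystalline retinal dystrophy. It was at 23.0, 22.1 and 21.5 TPM in Q11, 21.5, 20.8 and 21.2 TPM in M2 and 22.3, 21.5 and 26.1 TPM in control libraries. The groups overlapped, with control replicate 3 the highest value, and Q11 replicate 2 was at 23.1 TPM separated. Gm45753 on the same strand shares 8.22% of its exon bases. Cyp2u1 (ENSMUSG00000027983, chromosome 3, 131288441 to 131303227, minus strand) encodes a hydroxylase of long-chain fatty acids. It lay near the filter, at 0.982, 1.18 and 1.53 TPM in Q11, 0.721, 0.815 and 1.04 TPM in M2 and 1.298, 1.17 and 1.84 TPM in control libraries, on 19 to 59 reads. Q11 replicate 2 was at 0.814 TPM separated, inside the range of M2. M2 lay below control without overlap, but its difference of -0.38 had a wide interval (-0.84 to 0.07, limma adjusted p = 0.268). An antisense gene, 4930534D22Rik, covers 10.5% of its exon bases.

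Cyp20a1 (ENSMUSG00000049439, chromosome 1, 60343323 to 60388060, plus strand) encodes an orphan P450 with no settled substrate. It was at 64.1, 63.8 and 66.4 TPM in Q11, 62.3, 58.8 and 61.5 TPM in M2 and 57.5, 66.7 and 58.5 TPM in control libraries. It was the 1 tested P450 gene in which Q11 lay above M2 without overlap as deposited, where 9.18% of all tested genes did. With shared reads separated Q11 replicate 2 was at 61.8 TPM, inside the range of M2. The difference of Q11 against M2 was 0.09 (-0.04 to 0.21, limma adjusted p = 0.566).

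Families 1 to 3, Cyp2u1 aside, had 21 listed members and 0 above the filter. Together they summed to 1.02 to 2.78 TPM per library, on 10 to 52 reads. In 15 of the 21 no library exceeded 3 reads. Cyp2c55 was the highest, at 0.929, 0.422 and 0.401 TPM in Q11, 0.798, 0.749 and 1.15 TPM in M2 and 1.24, 0.892 and 0.103 TPM in control libraries. Its groups overlapped widely, also with Q11 replicate 2 at 0.450 TPM separated. Cyp2d22 reached 0.657 TPM in control replicate 2 and was listed at 0 in M2 replicate 2. The other members of these families with more than 3 reads in some library were Cyp2t4 (at most 9), Cyp2s1 (8), Cyp2d40 (4) and Cyp2w1 (4). Those with no more than 3 in any library were Cyp1a1, Cyp1b1, Cyp2a22, Cyp2ab1, Cyp2b23, Cyp2c23, Cyp2c37, Cyp2c67, Cyp2d26, Cyp2e1, Cyp2f2, Cyp3a11, Cyp3a13, Cyp3a16 and Cyp3a41a. The genes most used as readouts of xenobiotic receptors were almost unread: Cyp1a1, the classic target of the aryl hydrocarbon receptor, had 3 reads in M2 replicate 3 and 1 in control replicate 1, Cyp1b1 had 1 read each in Q11 replicates 2 and 3, and Cyp3a11, a target of the pregnane X receptor, had 2 in Q11 replicate 1. With the shared reads separated, Q11 replicate 2 held 0 reads of Cyp1b1. Any difference between groups in these genes was not detectable at this depth.

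Por, the shared electron donor of the P450s of the endoplasmic reticulum (ENSMUSG00000005514, chromosome 5, 135670033 to 135735326, plus strand), was the highest member. It was at 149, 164 and 159 TPM in Q11, 154, 153 and 168 TPM in M2 and 156, 159 and 158 TPM in control libraries, above 95.7% of all rows. The groups overlapped in full. Its difference was -0.01 in Q11 against M2 (-0.11 to 0.10, limma adjusted p = 0.970), 0.01 in M2 against control (-0.10 to 0.11, limma adjusted p = 0.957) and -0.00 in Q11 against control (-0.10 to 0.10, limma adjusted p = 0.996). The sign changed under several alternatives, with every value between -0.04 and 0.04. With shared reads separated Q11 replicate 2 was at 172 TPM. Set against the summed TPM of the P450 members outside mitochondria, which was 146 to 165 per library, Por stood at a ratio of 0.937 to 1.11. That sum leaves out Cyp51, which averaged 129 TPM in Q11, 124 TPM in M2 and 123 TPM in control libraries. The ratio therefore holds for the members only and not for all P450 genes.

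**Figure D3:**
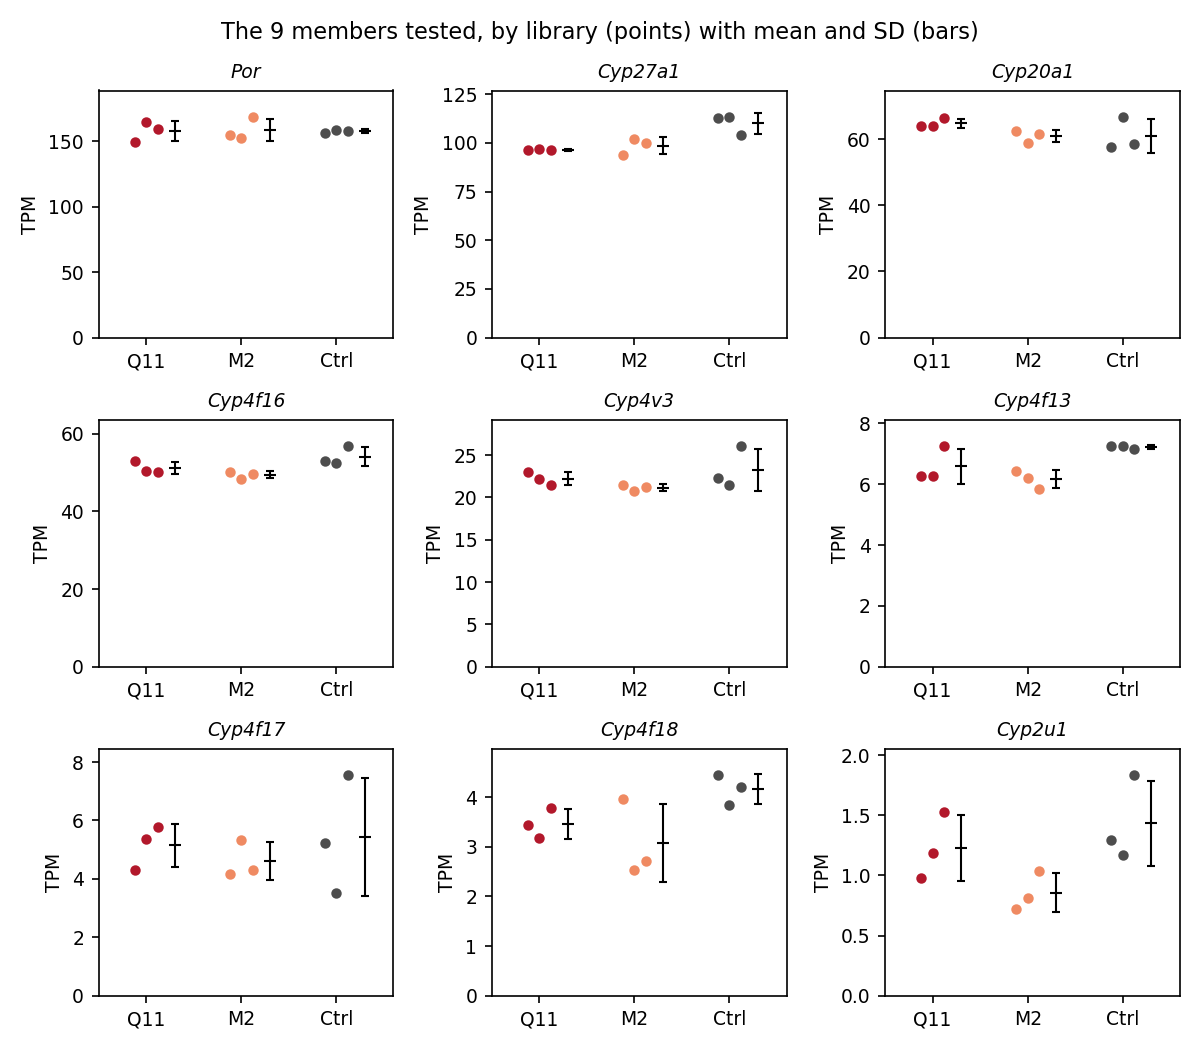
TPM of Por and the 8 tested P450 genes in each library, with Q11, M2 and control from left to right, points for libraries and bars for the mean ± SD of 3 libraries. In Cyp27a1 all Q11 and M2 points lie below the control points, in Cyp4f16, Cyp4f13 and Cyp2u1 the M2 points do, and the Por points overlap.

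The tested members kept an order of level. Por (149 to 168 TPM over all libraries) lay above Cyp27a1 (93.8 to 113), Cyp27a1 above Cyp20a1 (57.5 to 66.7), Cyp20a1 above Cyp4f16 (48.4 to 56.8) and Cyp4f16 above Cyp4v3 (20.8 to 26.1), with no overlap between neighbours across the 9 libraries. The range of Cyp4f13 (5.84 to 7.26) overlapped that of Cyp4f17 (3.52 to 7.56), which overlapped that of Cyp4f18 (2.53 to 4.45). Within libraries Cyp4f13 was above Cyp4f17 in all but control replicate 3. Cyp4f17 was above Cyp4f18 in all but control replicate 2. Cyp2u1 (0.721 to 1.84) was the lowest of the 9 tested.

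In M2 against control, 1 of 8 tested P450 genes passed as lower and 0 as higher (limma, Benjamini-Hochberg adjusted p). The groups did not overlap in 4 of the 8, all lower in M2, where 13.9% of all tested genes were lower without overlap. The median difference of the 8 was -0.16, and that of all tested genes was -0.00. In Q11 against control 1 of 8 passed as lower, and 2 of the 8, Cyp27a1 and Cyp4f18, lay lower without overlap, as did 15.8% of all tested genes. The median of the 8 was -0.10. These 2 comparisons use the same control libraries.

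In Q11 against M2 by limma 0 of the 8 and 0.00% of all tested genes passed. At an unadjusted p under 0.05 there were 0 of the 8 and 11.4% of all tested genes. By limma-voom on the recovered reads 0 of the 8 passed as well. Of the 8 differences 7 were above 0, with a median of 0.08, and all of their intervals include 0. This comparison and M2 against control share the M2 libraries, so that opposite signs in them are not separate measurements. For Cyp27a1 the interval was -0.13 to 0.07, for Cyp4f16 it was -0.04 to 0.14 and for Cyp4v3 it was -0.09 to 0.22. It was wider for the low genes, up to -0.19 to 0.71 in Cyp2u1.

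**Figure D4:**
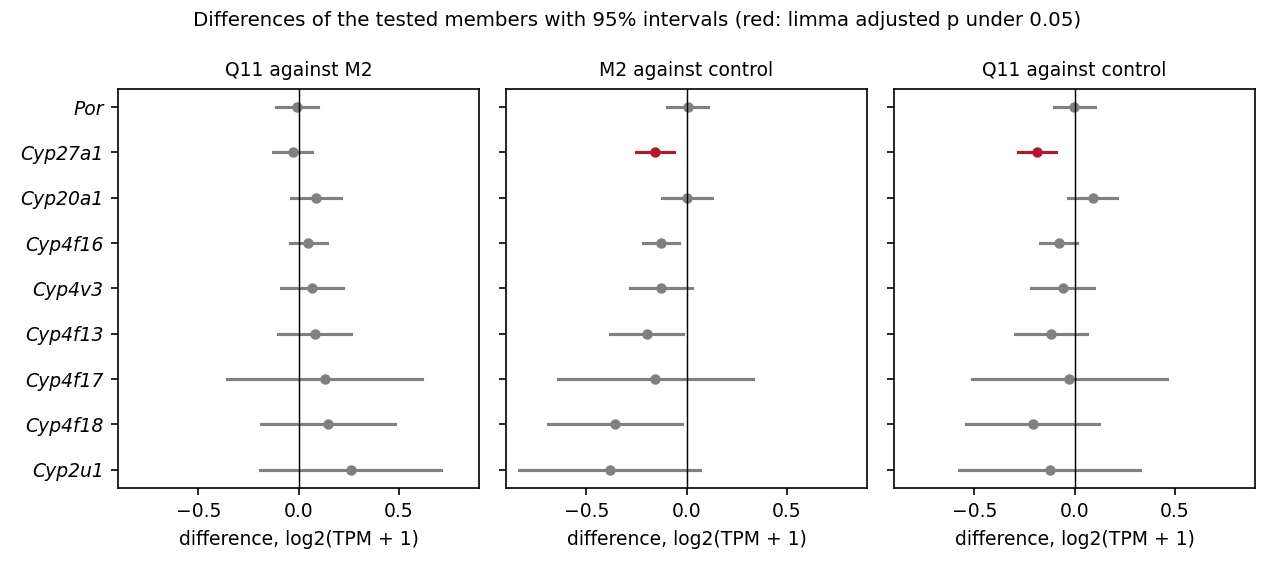
Difference on the log2(TPM + 1) scale with its 95% interval for Por and the 8 tested P450 genes, one panel each for Q11 against M2, M2 against control and Q11 against control. Only the Cyp27a1 intervals against control are coloured as passing, at -0.16 in M2 and -0.19 in Q11, and in Q11 against M2 every interval crosses 0.

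The genes that supply and surround the P450s were read from 6 lists of 50 genes, of which 48 were in the table and 42 were tested. In M2 against control 3 of the 42 rose and 2 fell, where 6.88% of all tested genes rose and 5.75% fell, and the median difference was 0.03. In Q11 against control 2 rose and 2 fell, where 5.19% and 5.53% of all tested genes did. In Q11 against M2 by limma 0 of the 42 passed, and by limma-voom also 0.

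Of the electron donors, 9 were tested and 1 rose: Cyb5b, a cytochrome b5 of the outer mitochondrial membrane, at 275, 271 and 269 TPM in Q11, 269, 270.4 and 265 TPM in M2 and 250, 246 and 254 TPM in control libraries. Both groups with cytokines lay above control (0.12 in Q11, limma adjusted p = 0.0111, and 0.10 in M2, limma adjusted p = 0.0207). The M2 call was lost without control replicate 1 (limma adjusted p = 0.0631), control replicate 2 (0.0678) or M2 replicate 1 (0.0581), with quantile normalization (0.124), with no mean-variance trend (0.0882) and with the replicate number as a block (0.0577). The Q11 call was lost with no mean-variance trend (0.0603). Here and below means are given with SD and n = 3 each, as deposited. Q11 replicates 2 and 3 share reads, so the 3 Q11 libraries are not independent and their SD may be too small. Ferredoxin gene Fdx1, which serves CYP27A1, averaged 24.6 ± 1.28 TPM in Q11, 22.6 ± 1.95 TPM in M2 and 21.2 ± 0.950 TPM in control libraries. Its reductase gene Fdxr averaged 24.5 ± 0.680 TPM in Q11, 24.0 ± 1.17 TPM in M2 and 20.8 ± 2.48 TPM in control libraries, and neither gene passed in any comparison. Fdxr passed without control replicate 3, in Q11 (limma adjusted p = 0.0343) and in M2 (0.0458) against control, and by limma-voom in Q11 against control (adjusted p = 0.0489). Under the other alternatives Fdxr did not pass, among them the shared reads separated (limma adjusted p = 0.118 in Q11 and 0.174 in M2). Cyb5a, the microsomal cytochrome b5, averaged 113 ± 5.40, 112 ± 9.95 and 109 ± 8.54 TPM in Q11, M2 and control libraries, and Cyb5r3, its reductase, averaged 254 ± 7.57, 269 ± 5.63 and 268 ± 2.59 TPM in the same order.

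All 8 genes of haem synthesis were tested and 0 passed in each comparison by limma. Alad, of an early step, passed in Q11 against control without control replicate 2 (limma adjusted p = 0.0364), with a filter of 5 TPM (0.0484) and by limma-voom (0.0447), against 0.0604 with all libraries. Under the other alternatives Alad did not pass, among them the shared reads separated (0.0775). Alas1, the first enzyme, averaged 37.2 ± 2.02 TPM in Q11, 39.5 ± 1.32 TPM in M2 and 39.6 ± 2.13 TPM in control libraries. Of the haem breakdown genes 1 of 4 fell: Blvra, a biliverdin reductase, averaged 163 ± 6.08 TPM in Q11, 168 ± 4.42 TPM in M2 and 194 ± 13.9 TPM in control libraries (limma adjusted p = 0.0161 for Q11 and 0.0345 for M2 against control). The Q11 call was lost without Q11 replicate 1 (0.0573) or 2 (0.0542). The M2 call was lost without control replicate 2 (0.0637) or 3 (0.0636), M2 replicate 1 (0.0978), 2 (0.0781) or 3 (0.0505) or Q11 replicate 2 (0.0574), with no filter (0.0717) and with no mean-variance trend (0.0793). Hmox1, haem oxygenase 1, averaged 275 ± 3.51 TPM in Q11, 298 ± 12.1 TPM in M2 and 307.5 ± 18.5 TPM in control libraries and did not pass (limma adjusted p = 0.0545 in Q11 against control). It passed as lower in that comparison without control replicate 2 (0.0488) or M2 replicate 2 (0.0480), with a filter of 5 TPM (0.0416), with quantile normalization (0.0392) and by limma-voom (0.00872). Under the other alternatives it did not pass, among them the shared reads separated (0.0894).

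Of 11 tested regulators, Rara, the retinoic acid receptor alpha gene, averaged 19.1 ± 1.04 TPM in Q11, 18.9 ± 1.25 TPM in M2 and 14.55 ± 0.985 TPM in control libraries. It rose by 0.37 in Q11 and 0.35 in M2 against control (limma adjusted p = 0.0110 and 0.0120). The Q11 call was lost without Q11 replicate 2 (0.0514), and the M2 call held under all 17 alternatives. Hsp90ab1, a chaperone that holds the aryl hydrocarbon receptor, rose in M2 against control (limma adjusted p = 0.00908) at 3855 ± 86.5 TPM in Q11, 4026 ± 147 TPM in M2 and 3569 ± 24.2 TPM in control libraries. That call was lost with no filter (0.0945) and with quantile normalization (0.0882). In Q11 against control Hsp90ab1 did not pass (limma adjusted p = 0.0597), but it passed as higher without M2 replicate 2 (0.0340) or 3 (0.0293), with a filter of 5 TPM (0.0333) and by limma-voom (0.00142). Under the other alternatives Hsp90ab1 did not pass there, among them the shared reads separated (0.0692). Rxra, the gene of a shared partner of nuclear receptors, averaged 49.0 ± 3.37 TPM in Q11, 51.6 ± 0.252 TPM in M2 and 54.7 ± 0.439 TPM in control libraries. It did not pass in Q11 against control (limma adjusted p = 0.0630). It passed as lower there with a filter of 5 TPM (0.0484), by limma-voom (0.0171) and without Q11 replicate 1 (0.0135). That last fit keeps only Q11 replicates 2 and 3, which share reads. With the shared reads separated Q11 replicate 2 was at 52.0 TPM. The difference was then -0.12 in place of -0.16 (limma adjusted p = 0.202). Nr1h2 passed as higher in M2 against control without M2 replicate 2 (0.0470), and Tiparp as higher in Q11 against control without control replicate 3 (0.0307). Neither passed with all libraries or with the shared reads separated (0.466 for Nr1h2 and 0.497 for Tiparp). The receptor gene Ahr averaged 3.74 ± 0.456 TPM in Q11, 3.01 ± 0.384 TPM in M2 and 2.79 ± 0.327 TPM in control libraries, and its repressor gene Ahrr averaged 1.72 ± 0.0677, 1.56 ± 0.315 and 1.36 ± 0.246 TPM in the same order. Neither passed. Nr1i3 was at or below 0.194 TPM in every library as deposited.

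P450 genes that carry other symbols did not pass by limma. Ptgis, the prostacyclin synthase gene, averaged 0.334 ± 0.231 TPM in Q11, 0.946 ± 0.596 TPM in M2 and 1.37 ± 0.423 TPM in control libraries. It reached 1 TPM only in the control libraries and M2 replicate 3. It thus passed the filter mainly through the group where it was highest, and no conclusion is drawn from its tests. In Q11 against control its limma adjusted p was 0.108, and 0.169 with the shared reads separated. Only limma-voom called it lower there (adjusted p = 0.0158). Tbxas1, the thromboxane synthase of macrophages and platelets, averaged 2.59 ± 0.351 TPM in Q11, 2.65 ± 0.0960 TPM in M2 and 2.08 ± 0.239 TPM in control libraries, and Cyp51, the lanosterol demethylase, averaged 129 ± 6.77, 124 ± 1.18 and 123 ± 1.46 TPM in the same order. Of 7 tested downstream enzymes 1 fell: Ugt1a7c, a glucuronosyltransferase gene, averaged 30.6 ± 0.707 TPM in Q11, 30.6 ± 0.664 TPM in M2 and 37.6 ± 1.41 TPM in control libraries (limma adjusted p = 0.00229 for Q11 and 0.00223 for M2 against control), and both calls held under all 17 alternatives. Genes of the Ugt1a locus share their last exons, so the split of its reads among them is uncertain.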

How the data were processed

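Poly-A RNA of 9 J774A.1 libraries was made into libraries, per the labels' protocols, by the NEBNext Ultra kit. The submitters' processing notes name StringTie 1.3.3b, HISAT2 2.0.5 and mouse build GRCm38; of the annotation release, the counting settings and strand use they say nothing that is held here. What the authors deposited is a table of TPM whose columns sum to 1000000. Exon lengths of GENCODE M21 (found for 97.8% of rows) turned TPM into reads: of low values, up to 20 reads, 98.8% to 99.1% were whole within 0.1 read.

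Groups came from the sample titles. limma 3.58.1 (R 4.3.3) was run with a mean-variance trend on log2(TPM + 1) of 14207 genes, those reaching 1 TPM in 3 libraries, with 1 mean per group and 6 residual degrees of freedom. P-values are two-sided and were adjusted by Benjamini-Hochberg over those genes, with a threshold of 0.05. This scale understates changes of low genes. Nothing says that libraries are separate cultures, so p-values reflect only their spread, which may be technical. The naming rule took every tested member, members read in all 9 libraries, the 5 highest others, and Cyp2e1, Cyp1a1 and Cyp3a11 whatever their values; further members were named after their values were seen. Of pathway lists it took called genes and a fixed few; Cyp51, Ptgis, Alas1, Alad, Rxra, Nr1h2, Tiparp and Nr1i3 were added likewise. Members and lists were chosen with earlier results of these data known. The fit was tested on simulated data. Those were drawn as independent libraries, without the reads that Q11 replicates 2 and 3 share, so the test does not cover that feature. Alternatives are given in the closing section. Plots and tables: matplotlib 3.10.9, pandas 2.3.3, numpy 2.4.6, Python 3.11.15. Promoters are from RefSeq.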

Additional observations from a re-analysis of the deposited data

How the results depend on the processing

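Of 17 alternatives, 9 left out a library. The count of P450 genes passing in M2 against control was 1, and it was 0 with no filter on low values, with no mean-variance trend, with shared reads separated, and with the replicate block, and 0 to 1 over the left-out libraries. In Q11 against control it was 1, 0 with no mean-variance trend, and 0 to 1 over the left-out libraries. For the pathway lists the 5 of M2 against control became 3 with no filter, with quantile normalization and with no mean-variance trend, and 3 to 5 over the left-out libraries (3 without control replicate 2 or M2 replicate 1). The 4 of Q11 against control became 8 with a filter of 5 TPM and 10 by limma-voom, and 2 to 6 over the left-out libraries (2 without Q11 replicate 2). In Q11 against M2 both counts were 0 under each alternative. For those counts that moved, the cause was not tested.

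Signs turned only in differences that had not passed, and the cause was not tested. Por turned to -0.0116 (quantile normalization) in M2 against control, to 0.00428 (quantile normalization), 0.0149 (separated) and 0.00341 (limma-voom) in Q11 against M2, and to 0.0207 (separated) and 0.00637 (limma-voom) in Q11 against control. Over the left-out libraries Por ranged from -0.0385 to 0.0320, from -0.0374 to 0.0377 and from -0.0316 to 0.0386 in these comparisons. Cyp20a1 in M2 against control turned to -0.0166 (quantile normalization) and -0.00162 (limma-voom), and ranged from -0.0372 to 0.0672 over the left-out libraries. Over those, Cyp4f17 ranged from -0.39 to 0.0743 in M2 and from -0.26 to 0.205 in Q11 against control, where it was 0.00216 by limma-voom, and Cyp4v3 ranged from -0.11 to 0.0216 in Q11 against control.

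Same-numbered libraries of different groups did not deviate together (r from -0.11 to 0.11 over 9 pairs). With deviations taken from means of 3 libraries, this cannot exclude that the numbers pair the samples. The main fit assumed no pairing. Depth limits the 34 P450 genes below the filter: 20 of them had at most 3 reads in every library.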

Other observations

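Among the rows left out by the rule, the pseudogene Cyp4f41-ps had more transcripts than most P450 genes of the set. It was at 3.38, 2.27 and 2.25 TPM in Q11, 2.23, 3.05 and 5.15 TPM in M2 and 3.30, 2.39 and 1.15 TPM in control libraries, and the groups overlapped. Cyp2c52-ps was at 0.850, 0.651 and 0.826 TPM in Q11, 0.684, 0.441 and 0.719 TPM in M2 and 0.709, 0 and 0 TPM in control libraries. Both were looked up after the values of the members were seen.

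Cyp4f37 had 1, 7 and 6 reads in Q11, 1, 2 and 1 in M2 and 0 in each control library, of which 1 of the 7 in Q11 replicate 2 is separate from replicate 3. It was below the filter, was singled out after its values were seen, and its difference with no filter did not pass (0.31 in Q11 against control, limma adjusted p = 0.139).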
